A study of Homo sapiens with 4 samples.

Results

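STC1 and STC2 are the human stanniocalcin genes. They were chosen by their counts and CPM (counts scaled to the size of the library) in the 4 libraries described here, and are 2 of 20286 measured genes. The cells were HLE, a long-established line from a human hepatocellular carcinoma. Libraries CYR61 1 and CYR61 2 came from HLE cells with stable expression of CYR61, the secreted matricellular protein now named CCN1, and libraries Vector 1 and Vector 2 from HLE cells with a stable vector. All 4 cultures were grown in the same medium with serum and antibiotics and received no further treatment. Per the series text, the RNA came from the whole population of each stable line, and the 2 replicates per group were independent cultures. The p-values below therefore measure the spread between cultures and not between separately made lines.

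Stanniocalcins are secreted glycoprotein hormones, first known in fish, where they lower calcium uptake. In mammals they act mainly near the cells that make them. Both human proteins bind and inhibit the pappalysins PAPP-A and PAPP-A2, metalloproteases that cut IGF-binding proteins and so free insulin-like growth factors. STC1 transcription is known to respond to low oxygen through HIF, and STC2 transcription to low oxygen and to endoplasmic reticulum stress through the kinase PERK and the transcription factor ATF4. Either gene is often high in tumours.

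STC2 (ENSG00000113739) lies on the minus strand of hg38 chromosome 5, from 173314713 to 173329503, and is protein-coding. Because HIF and ATF4 are the regulators named above, the 250 bases before the RefSeq start of STC2 were searched on both strands for 4 motifs. These were the HIF core in its form GCGTG and in its other form ACGTG, the composite element bound by ATF4, TGATGNAA, and the general promoter box CCAAT. The RefSeq promoter table (GRCh38.p14) matched 1 of the 2 genes, STC2 and not STC1. The form GCGTG, or its reverse complement CACGC, occurred 3 times, with the first pair of matches sharing a base. The box CCAAT occurred once, on the opposite strand and so read here as ATTGG. The other HIF form and the ATF4 element had 0 matches in this window. The matched stretches are shown 5′ to 3′ on the strand of the gene, with the motif letters in capitals.
STC2 GCGTG matches, chr5:173328626-173328655, minus strand: catacaCACGCACGCaaacGCGTGgccgcc
STC2 CCAAT match, chr5:173328497-173328526, minus strand: ccggggtctcggATTGGtccagccgccggg
Of 35116 promoters of the same length, 32.2% held GCGTG, 32% CCAAT, 18.5% ACGTG and 3.14% TGATGNAA. The 2 stretches lie upstream of the RefSeq start but inside the GENCODE exon of STC2 that starts furthest upstream. A match of letters is no evidence of binding.

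The files held between 16186988 and 21588822 estimated counts per library, the lowest in CYR61 2, and between 14573 and 15068 genes with a count. CYR61 itself stood at 8088 and 8616 CPM in the CYR61 libraries, against 221 and 218 CPM in the Vector libraries, in the direction of the labels. Whether a CYR61 read came from the construct or from the genome cannot be told apart. The hepatocyte genes ALB, TTR and APOB were at 0 in every library, and HNF4A was at 3.69 ± 0.172 CPM in CYR61 cells and 4.95 ± 1.18 CPM in Vector cells (SD, n = 2 each). Of 9 hepatocyte markers 4 could be tested and 1 of these rose, the fibrinogen gene FGB (log2 fold change 1.85, edgeR adjusted p = 0.000437), where 1.83% of all tested genes were higher. The summed level of the 9 was 35.6 and 33.1 CPM in CYR61 libraries and 23.2 and 21.8 CPM in Vector libraries. FGB alone gave 20.8 and 18.2 CPM of this in CYR61 libraries and 5.84 and 5.03 CPM in Vector libraries. The other tested hepatocyte markers, HNF4A (-0.41), TF (-0.13) and SERPINA1 (-0.05), were below 0 and did not pass. KRT8, an epithelial keratin, was at 3054 ± 266 CPM in CYR61 cells and 2387 ± 291 CPM in Vector cells. Of 5 epithelial markers 4 were tested and 0 passed. KRT18 was at 1373 ± 62.1 CPM in CYR61 cells and 1111 ± 79.8 CPM in Vector cells. EPCAM was at 0.84 CPM in CYR61 cells and 0.838 CPM in Vector cells. CDH1 was at 2.18 CPM in CYR61 cells and 1.05 CPM in Vector cells, and KRT19 had at most 2 counts in any library. VIM, a mesenchymal filament gene, was at 1632 ± 194 CPM in CYR61 cells and 1831 ± 178 CPM in Vector cells. Of the 3 mesenchymal markers, VIM (-0.17) and CDH2 (0.18) did not pass and FN1, for fibronectin, fell (-1.48, edgeR adjusted p = 0.000191). The summed level of these 3 was 1583 and 1852 CPM in CYR61 libraries and 2089 and 1834 CPM in Vector libraries. Of 5 fibroblast markers 3 were tested and 1 rose, the proteoglycan gene DCN (2.34, edgeR adjusted p = 0.00746), where 1.83% of all tested genes were higher. DCN was at 2.96 CPM in CYR61 cells and 0.59 CPM in Vector cells. The more abundant COL1A1 (-0.20) and PDGFRB (-0.36) were below 0 and did not pass. COL1A2 had a single count, in Vector 2. The 5 summed to 38.3 and 38.3 CPM in CYR61 libraries and 46.4 and 38.1 CPM in Vector libraries. The part of these markers in the results below was not tested. The endothelial gene KDR was at 0 in every library. The summed level of the 4 endothelial markers was 2.37 and 2.51 CPM in CYR61 libraries and 2.07 and 1.81 CPM in Vector libraries. Of 4 immune markers, the T-cell gene CD3E was at 0 in every library. The leukocyte gene PTPRC had a single count, in Vector 2. CD14 had 14 and 7 counts in CYR61 libraries and 7 and 4 in Vector libraries. CD68 was at 50.7 ± 3.65 CPM in CYR61 cells and 64.9 ± 3.22 CPM in Vector cells. Its log2 fold change of -0.36 did not pass. The 4 immune markers summed to 48.8 and 53.7 CPM in CYR61 libraries and 67.6 and 62.9 CPM in Vector libraries, mostly CD68.

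Both stanniocalcin transcripts were lower in the CYR61 cultures. They were selected on this difference, so their values are a description and carry no test. STC1 (ENSG00000159167) is a protein-coding gene on the minus strand of hg38 chromosome 8, from 23841915 to 23854807. No other gene of GENCODE release 29 overlaps STC1 or STC2 on either strand. STC1 had 14 and 7 estimated counts in the CYR61 libraries, against 127 and 145 in the Vector libraries. Scaled to library size, that is 0.651 and 0.438 CPM in CYR61 cells and 6.74 and 6.57 CPM in Vector cells. Both CYR61 libraries were low, and the lowest Vector library was 10.1 times the highest CYR61 library. The log2 fold change of STC1 was -3.56 (SE 0.31), or 11.8-fold lower, the 8th lowest of 12698 tested genes. The 95% Poisson interval of its count was 7.65 to 23.5 in CYR61 1 and 2.81 to 14.4 in CYR61 2, so the level left in CYR61 cells was measured with much less precision than that in Vector cells. These intervals cover counting error only. In such bulk RNA, fewer expressing cells and less RNA per cell cannot be told apart.

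STC2 values were closer than those of STC1 between the CYR61 cultures (SD of log2 CPM 0.022 against 0.338). Between the Vector cultures they were not (0.034 against 0.026). STC2 had 1098 and 833 estimated counts in the CYR61 libraries, against 3752 and 4251 in the Vector libraries. The levels were 51.1 and 52.2 CPM in CYR61 cells and 199 and 192 CPM in Vector cells. The 2 cultures of each group lay close together and far from those of the other group. The log2 fold change was -1.92 (SE 0.12), or 3.79-fold lower, the 55th lowest of the tested genes. The group means were 51.6 ± 0.784 CPM in CYR61 cells and 196 ± 4.67 CPM in Vector cells (SD, n = 2 each).

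**Figure D1:**
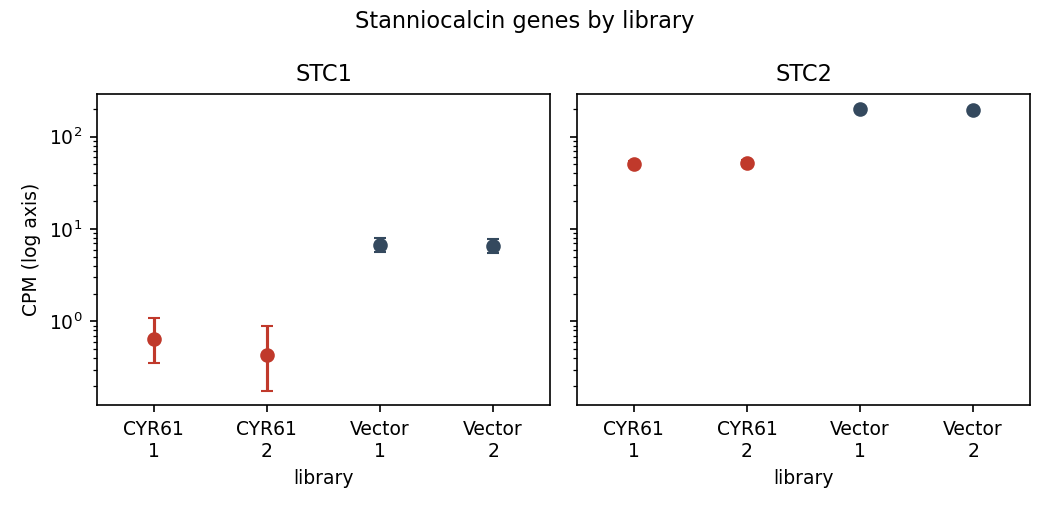
CPM of STC1 (left) and STC2 (right) in each library on a log axis, with CYR61 libraries in red and Vector libraries in dark blue and bars for the 95% Poisson interval of the count (smaller than the points for STC2). STC1 lies at 0.651 and 0.438 CPM in CYR61 libraries and 6.74 and 6.57 CPM in Vector libraries, and STC2 at 51.1 and 52.2 CPM in CYR61 libraries and 199 and 192 CPM in Vector libraries.

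To set the genes against each other, counts were divided by merged exon length, 4149 bases for STC1 and 6128 for STC2, and scaled to a common sum per library (TPM). On this scale STC1 in CYR61 cells was lowest at 0.484 ± 0.14 TPM, followed by STC1 in Vector cells at 6.05 ± 0.101 TPM. STC2 in CYR61 cells came next at 30.97 ± 0.0255 TPM, and STC2 in Vector cells was highest at 120.6 ± 1.36 TPM (SD, n = 2 each). The steps between groups within each gene are the differences that chose the genes, so this order is a description and no test. STC1 exceeded 15.9% and 12.6% of the genes with a count in the CYR61 libraries, against 36.1% and 35.5% in the Vector libraries. STC2 exceeded 67.4% and 68% of them in the CYR61 libraries, against 90.4% and 90.7% in the Vector libraries. In CYR61 cells STC2 thus stayed above the median detected gene, and STC1 lay well below it.

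The size of the difference was not equal for the 2 genes, again as a description of the values that chose them. The difference between the log2 fold changes, STC1 minus STC2, was -1.64, so that STC1 was lower by a further factor of 3.11. Per exon length, STC2 was 53.1 and 80.6 times as abundant as STC1 in the CYR61 libraries, and 20.0 and 19.8 times in the Vector libraries. STC1 gave 1.26% of the counts of both genes in CYR61 1 (exact 95% binomial interval 0.69% to 2.1%) and 0.833% in CYR61 2 (0.336% to 1.71%). It gave 3.27% in Vector 1 (2.74% to 3.88%) and 3.3% in Vector 2 (2.79% to 3.87%). These intervals cover counting error only, treat counts as independent molecules, and are no test of the difference between groups. With its length-scaled levels added, the pair stood at 31.5 and 31.4 TPM in CYR61 cells and 126 and 128 TPM in Vector cells, almost all of it STC2.

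The known protein targets of the stanniocalcins were examined next, in a fit over all genes with edgeR's quasi-likelihood test and Benjamini-Hochberg adjustment at 0.05. Of the 12698 genes tested after a filter on low counts, 6.39% passed, with 4.56% lower and 1.83% higher in CYR61 cells. With each library's trend of log2 CPM with GC content removed (the GC trend), 29.7% passed, 13.9% lower and 15.8% higher, so higher genes were 53.2% of those called, against 28.6% without that correction. With the culture number as a block, 3.08% passed, 2.66% lower and 0.417% higher. The 811 genes called became 481 without Vector 1 and 1331 without CYR61 2. Each count of a list is to be read against these shares.

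PAPPA, which encodes the pappalysin PAPP-A, was lower in CYR61 cells along with STC1 and STC2, whose products inhibit it. It had 333 and 289 counts in the CYR61 libraries and 681 and 921 in the Vector libraries, or 16.8 ± 1.85 CPM in CYR61 cells and 38.9 ± 3.94 CPM in Vector cells (SD, n = 2 each). Its log2 fold change was -1.22 (SE 0.16, edgeR adjusted p = 0.00191). PAPPA2, for the related PAPP-A2, was at 2.49 ± 0.635 CPM in CYR61 cells and 4.75 ± 0.333 CPM in Vector cells. Its log2 fold change of -0.95 did not pass (edgeR adjusted p = 0.0657), but passed with the GC trend removed (edgeR adjusted p = 0.0138), without a filter (0.008) and without CYR61 2 (0.00998).

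The list of pappalysins, the IGF-binding proteins they cut and the IGF genes held 12 genes, of which 8 were tested. Of these, 2 (25%) fell and 0 rose, where 4.56% of all tested genes were lower and 1.83% higher. The median log2 fold change was -0.39, against -0.006 over all tested genes. All 8 log2 fold changes were below 0, from -1.22 to -0.23. IGFBP3, which encodes the main IGF carrier of serum, was the other that fell, at 70.9 ± 5.26 CPM in CYR61 cells and 152 ± 8.59 CPM in Vector cells (log2 fold change -1.10, SE 0.12, edgeR adjusted p = 0.000832). IGFBP4, the substrate by which PAPP-A is best known, was at 190.5 ± 20.2 CPM in CYR61 cells and 247 ± 22 CPM in Vector cells (edgeR log2 fold change -0.37, adjusted p = 0.103). The receptor genes IGF1R (-0.30), IGF2R (-0.33) and INSR (-0.23) and PRG2 (-0.40), whose product is another inhibitor of PAPP-A, did not pass either. The remaining 4 genes were not tested, with at most 3 counts in any library for IGF1, IGF2 and IGFBP5 and 0 for IGFBP2. With the GC trend removed, 6 of the 8 were lower and 0 higher, where 13.9% of all tested genes were lower and 15.8% higher.

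**Figure D2:**
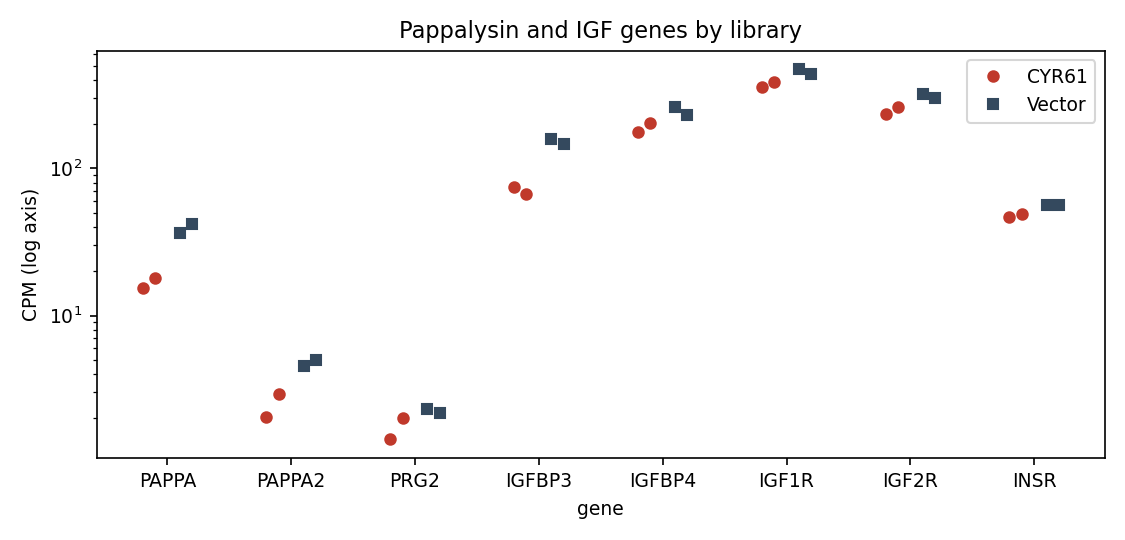
CPM on a log axis of the 8 tested pappalysin and IGF genes, with 1 point per library, CYR61 libraries as red circles left of Vector libraries as dark blue squares. PAPPA lies at 15.5 and 18.1 CPM in CYR61 libraries and 36.1 and 41.7 CPM in Vector libraries, and the other genes are closer between groups, with IGFBP3 next.

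Genes whose products have been reported to bind or mediate stanniocalcins were examined as a list of 6, which includes PAPPA and PAPPA2. Of these 1 (16.7%) fell and 0 rose, where 4.56% of all tested genes were lower and 1.83% higher. The gene that fell was PAPPA, already counted above, and the median log2 fold change was -0.35. STIM1, the calcium sensor of the endoplasmic reticulum that STC2 has been reported to bind, was at 51.9 ± 0.389 CPM in CYR61 cells and 64.7 ± 1.27 CPM in Vector cells (edgeR log2 fold change -0.32, adjusted p = 0.147) and passed only with the GC trend removed (-0.26, edgeR adjusted p = 0.0186). HMOX1, encoding haem oxygenase, was at 12.5 ± 0.243 CPM in CYR61 cells and 16.3 ± 1.07 CPM in Vector cells (-0.38, edgeR adjusted p = 0.197). CALR, for the chaperone calreticulin that STC1 has been reported to retain inside cells, was at 648 ± 18.7 CPM in CYR61 cells and 688 ± 33.7 CPM in Vector cells (-0.09, edgeR adjusted p = 0.678). UCP2, a mitochondrial carrier reported to act downstream of STC1, was at 222 ± 15.6 CPM in CYR61 cells and 223 ± 20 CPM in Vector cells (-0.01, edgeR adjusted p = 0.974), and its sign turned under some alternatives. These are means with SDs over 2 libraries per group. The list counted 2 genes as lower without CYR61 2.

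Calcium and phosphate handling is the classical field of stanniocalcins. In a list of 14 genes of store-operated calcium entry and calcium stores, all were tested and 1 (7.14%) fell, with a median of -0.20. This was the calcium channel gene ORAI3, at 4.8 ± 0.319 CPM in CYR61 cells and 12.8 ± 0.987 CPM in Vector cells (log2 fold change -1.41, SE 0.19, edgeR adjusted p = 0.00226), while ORAI1 (-0.03) and ORAI2 (0.01) did not pass. The list held 6 lower and 1 higher with the GC trend removed, where 13.9% of all tested genes were lower and 15.8% higher. Of 20 genes of calcium and phosphate transport, 9 were tested and 1 (11.1%) fell, the phosphate transporter gene SLC20A1, with a median of -0.06. With 1 call each, these shares are not read as differing from the 4.56% of all tested genes that were lower. SLC20A1 was at 77.4 ± 6.78 CPM in CYR61 cells and 108 ± 3.16 CPM in Vector cells (edgeR log2 fold change -0.48, adjusted p = 0.0462). That call was lost when any single library was left out, with edgeR adjusted p of 0.0514 without CYR61 1, 0.173 without CYR61 2, 0.168 without Vector 1 and 0.245 without Vector 2. TRPV5, TRPV6, S100G, SLC34A1, SLC34A2, FGF23 and KL were at 0 in every library.

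Among 20 genes for factors reported to control stanniocalcin transcription, 6 (30%) fell and 0 rose, with a median of -0.27. Over all tested genes, 4.56% were lower and 1.83% higher. EPAS1, encoding the oxygen-regulated subunit HIF-2 alpha, was at 248 ± 6.29 CPM in CYR61 cells and 423 ± 7.57 CPM in Vector cells (edgeR log2 fold change -0.77, adjusted p = 0.00259). HIF1A was at 125 ± 16.7 CPM in CYR61 cells and 149 ± 14.6 CPM in Vector cells (-0.26, edgeR adjusted p = 0.282). EGLN3, a prolyl hydroxylase gene that HIF itself induces, fell by 2.02 on the log2 scale. ATF4 was at 165 ± 16.8 CPM in CYR61 cells and 248 ± 22.2 CPM in Vector cells (-0.59, edgeR adjusted p = 0.0213), and the gene of its partner CHOP, DDIT3, at 8.73 ± 0.58 CPM in CYR61 cells and 25.7 ± 0.664 CPM in Vector cells (-1.56, edgeR adjusted p = 0.000617). DDIT3 is uncertain, since its exons overlap those of MARS1 and MBD6 on the other strand and the sources used here do not say whether the libraries kept strand. ERN1, the stress sensor IRE1, fell by 0.90 and XBP1, the factor it activates, by 0.56. EIF2AK3, which encodes PERK, was at 15.2 ± 2.28 CPM in CYR61 cells and 14.5 ± 2.14 CPM in Vector cells (0.06, edgeR adjusted p = 0.88). Of the 20, 11 were lower and 1 higher once the GC trend was removed, where 13.9% of all tested genes were lower and 15.8% higher. The 6 calls became 3 without CYR61 1 and 3 without Vector 1. ATF4 was lost without CYR61 1 (edgeR adjusted p = 0.11) and without Vector 1 (0.141), and ERN1 likewise (0.0704 and 0.0619). XBP1 was lost without CYR61 1 (0.0948), Vector 1 (0.118) or Vector 2 (0.0926).

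Known targets of ATF4 and of HIF were mostly lower too. Of 30 ATF4 targets, 29 were tested, 28 (96.6%) fell and 0 rose, with a median log2 fold change of -1.17. Of 29 HIF targets, which were all tested, 16 (55.2%) fell and 0 rose, with a median of -0.73. Beside these, 4.56% of all tested genes were lower and 1.83% higher. STC1 and STC2 were left out of both lists, which were drawn up with earlier results of these libraries known, and DDIT4 is in both. EGLN3 and DDIT3, counted above among the regulators, are also a HIF target and an ATF4 target here. With the GC trend removed, 29 ATF4 targets and 23 HIF targets were lower and 0 higher, beside 13.9% lower and 15.8% higher over all tested genes. With the culture number as a block instead, 23 ATF4 targets and 13 HIF targets were lower and 0 higher. Over all tested genes, that fit called 2.66% lower and 0.417% higher. The ATF4 target that was not tested, FGF21, had 0 counts in both CYR61 libraries and 6 and 10 in the Vector libraries. The log2 fold change of STC2 lay inside the range of each list, with 5 ATF4 targets and 6 HIF targets at or below it. That of STC1 lay below every tested member of both. PCK2, mitochondrial phosphoenolpyruvate carboxykinase, was at 35.1 ± 6.65 CPM in CYR61 cells and 140 ± 6.81 CPM in Vector cells (-2.00, edgeR adjusted p = 0.000104). DDIT4, which encodes an inhibitor of mTORC1, was at 396 ± 58 CPM in CYR61 cells and 1016 ± 156 CPM in Vector cells (-1.36, edgeR adjusted p = 0.000653). SLC7A1, an arginine transporter gene, was the ATF4 target that did not pass (-0.41, edgeR adjusted p = 0.0689). The glycolytic genes among the HIF targets were divided. ALDOC (-1.15), PFKFB4 (-0.73) and HK2 (-0.58) fell, while PGK1 (-0.37), ENO1 (-0.02), LDHA (-0.01), ALDOA (0.02) and PFKFB3 (0.05) did not pass.

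**Figure D3:**
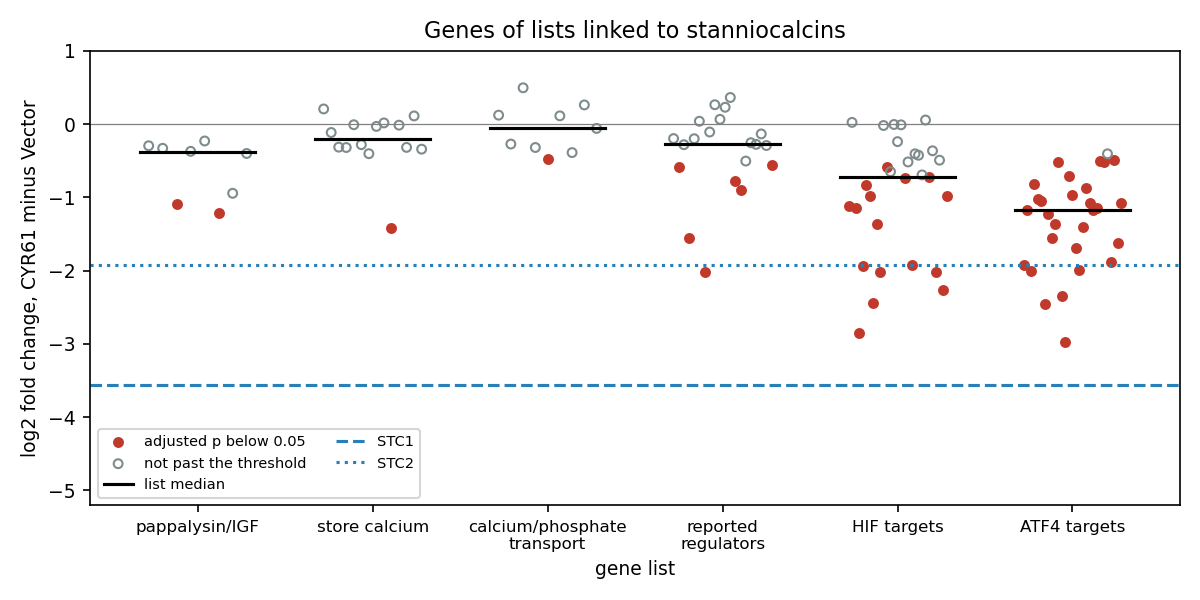
Log2 fold change (CYR61 minus Vector) of the tested genes of 6 lists, red where the edgeR adjusted p was below 0.05 and open grey otherwise, with the list median as a black bar and the values of STC1 (-3.56) and STC2 (-1.92) as dashed and dotted lines. The medians run from -0.06 for calcium and phosphate transport to -1.17 for ATF4 targets, and the STC1 line lies below every point.

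The genes whose profiles were most like each stanniocalcin were found by the root mean square difference, over the 4 libraries, of log2 CPM relative to the Vector mean. The search covered 11988 other protein-coding genes of at least 1 CPM. With 4 libraries this measure mostly ranks genes by the size of their difference between groups. For STC1 the nearest were INHBA (0.34 log2 units), INHBE (0.38) and KLHDC7B (0.38), then ANGPTL4 (0.43) and ULBP1 (0.69). INHBA and INHBE encode subunits of activins, ANGPTL4 a secreted inhibitor of lipoprotein lipase, and ULBP1 a ligand of the receptor NKG2D. INHBA had 8 and 2 counts in the CYR61 libraries and 94 and 82 in the Vector libraries, and its log2 fold change of -4.00 became -5.03 without CYR61 1. INHBE had 18 and 6 counts in the CYR61 libraries and 100 and 105 in the Vector libraries, and its -2.98 became -3.71 without CYR61 1. KLHDC7B had 13 and 5 counts in the CYR61 libraries and 74 and 85 in the Vector libraries, and its -3.01 became -3.59 without CYR61 1.

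Among the nearest to STC2 were NDRG1 (0.08), TPBG (0.09), KIF21B (0.09) and ABCG1 (0.11). TPBG encodes an oncofetal surface glycoprotein, KIF21B a kinesin and ABCG1 a cholesterol exporter. TPBG had 395 and 358 counts in the CYR61 libraries and 1442 and 1704 in the Vector libraries (log2 fold change -1.92, SE 0.14). KIF21B had 346 and 285 counts in the CYR61 libraries, against 1184 and 1254 in the Vector libraries (-1.82, SE 0.14). ABCG1 had 194 and 174 counts in the CYR61 libraries, against 786 and 789 in the Vector libraries (-1.96, SE 0.17). STC2 was the 22nd nearest gene to STC1, at 1.06 log2 units, and STC1 was the 1397th nearest to STC2 at the same distance.

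**Figure D4:**
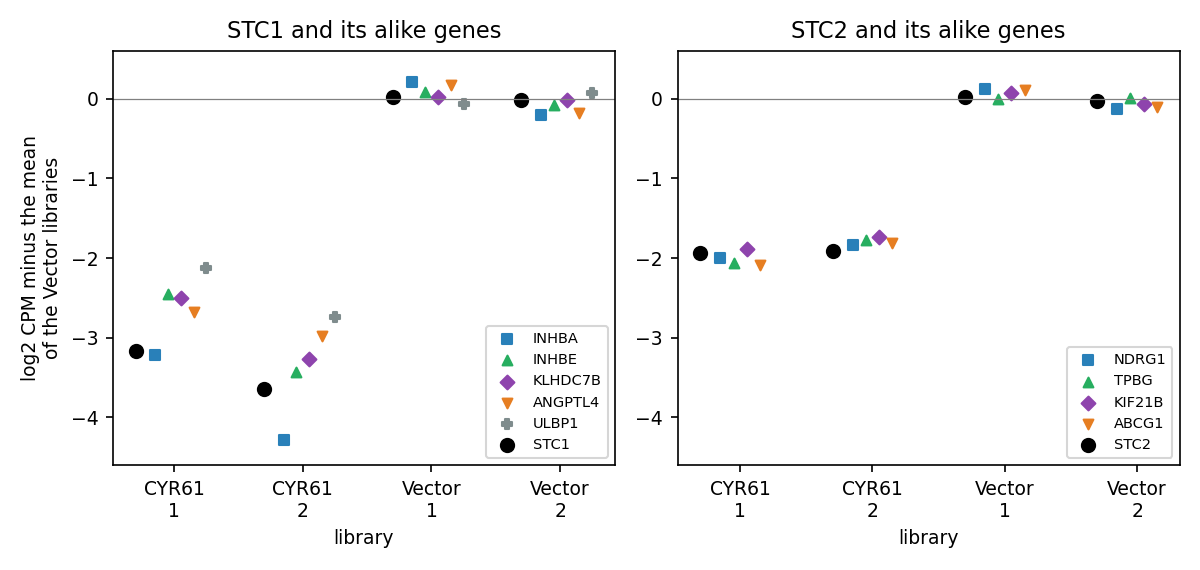
Log2 CPM minus the mean of the Vector libraries in each library for STC1 with 5 of its most alike genes (left) and STC2 with 4 of its most alike genes (right). STC1 lies at -3.16 and -3.64 in the CYR61 libraries with its alike genes spread from -2.12 to -4.28 there, and STC2 at -1.94 and -1.91 with these alike genes from -1.74 to -2.08.

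Position in the genome was not used to choose the genes, so their surroundings were described as well. STC1 has the homeobox gene NKX2-6 and the mitochondrial iron transporter gene SLC25A37 among its neighbours on one side, and ADAM28, ADAMDEC1 and ADAM7 on the other. STC2 has NKX2-5, another homeobox gene, then BNIP1 and CREBRF on one side and BOD1, CPEB4 and C5orf47 on the other. Of the 12 nearest protein-coding genes, 3 on each side of either gene, 6 passed the filter, of which 3 fell and 0 rose, beside the 4.56% of all tested genes that were lower. SLC25A37, 266 kb from STC1, was at 66.5 ± 4.35 CPM in CYR61 cells and 107 ± 4.4 CPM in Vector cells (log2 fold change -0.68, SE 0.12, edgeR adjusted p = 0.00915), a call that was lost with the culture number as a block (0.0707).

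Near STC2, CREBRF, a regulator of CREB3 and of cell energy balance, was at 6.15 ± 1.17 CPM in CYR61 cells and 11.7 ± 1.21 CPM in Vector cells (edgeR log2 fold change -0.92, adjusted p = 0.0264), and lies 175 kb away. CPEB4, which encodes a regulator of messenger RNA polyadenylation and translation, was at 3.19 ± 0.352 CPM in CYR61 cells and 7.16 ± 1.72 CPM in Vector cells (-1.16, edgeR adjusted p = 0.0234). Both calls were lost without Vector 2 (edgeR adjusted p = 0.0808 for CREBRF and 0.135 for CPEB4), which left 1 of the 3 calls. BNIP1 (0.09) and BOD1 (-0.24), which lies between STC2 and CPEB4, did not pass. No tested neighbour had a difference as large as that of the stanniocalcin it lies near. Since the stanniocalcins were chosen on that difference, the comparison is a description and no test. NKX2-5, NKX2-6 and ADAM7 were at 0 in every library, and ADAM28, ADAMDEC1 and C5orf47 had at most 2 counts in any.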

How the data were processed

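RNA was sequenced from 2 HLE-CYR61 and 2 HLE-Vector cultures. Each deposited table holds the authors' estimated counts of 1 library. The submitters' processing notes name hg38, Cuffdiff 1.3.0, Cufflinks 2.2.1 and TopHat2 2.1.1. Which program counted, with which annotation and strand setting, is not given in these sources. Between 11.2% and 12% of values per library were not whole, so counts were rounded. Genes passing filterByExpr (12698) were scaled by TMM and tested with edgeR 4.0.16 (R 4.3.3). Log2 fold changes are CYR61 minus Vector; the SE is the log2 fold change over the square root of F. Symbols matched 20228 of 20286 identifiers; positions and lengths came from GENCODE release 29 on GRCh38, which held 20212. The GC trend was removed with an offset from a natural spline (5 degrees of freedom). Fits used DESeq2 1.42.0 and limma-voom 3.58.1 as alternatives, and the script was tested on simulated data. Besides both stanniocalcins and CYR61, the named genes were every measured partner, up to 6 called genes of smallest adjusted p per list (or the one of smallest p), 3 protein-coding neighbours per side and 5 alike genes each. A few genes under this rule are not reported here. Others named were chosen after their values were seen. The genes and lists were chosen with earlier results of these data known.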

Additional observations from a re-analysis of the deposited data

How the results depend on the processing

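STC1 and STC2 kept their direction under every alternative run. STC1 ranged from -3.89 to -3.34 with 1 library left out, and STC1 minus STC2 from -2.00 to -1.40. STC2 was -1.88 with the GC trend removed, with or without the replicate block. Where 1 library was left out, the lone library of its group was assumed to vary like the other group. The count of called genes was 811, but 1677 without a filter, 391 with the replicate block, 3772 with the GC trend removed, 3009 with both, and 481 (without Vector 1) to 1331 (without CYR61 2) with 1 library left out. The cultures share only a number. Deviations of same-numbered libraries from their group means correlated at -0.71 over 10377 genes, and a block with crossed numbers, chosen after the data were seen, called 5624 genes. Called members without a filter, with the GC trend removed, and with that and the replicate block numbered 4, 6 and 6 for pappalysin and IGF genes, 2, 3 and 2 for reported partners, and 2, 7 and 5 for calcium stores. For calcium and phosphate transport the count was 3 with the GC trend removed and 2 with the replicate block added, but 0 with RLE size factors, library size alone or the replicate block alone. For reported regulators it was 12 and then 10. With 1 library left out, the counts ran from 1 to 2 for partners and for calcium stores, 0 to 1 for calcium and phosphate transport, 3 to 7 for regulators and 1 to 3 for neighbours. The replicate block alone also lost the calls of ATF4 (edgeR adjusted p = 0.129), XBP1 (0.197) and SLC25A37 (0.0707). UCP2, near 0 throughout, was 0.0064 by DESeq2 and with RLE size factors, 0.072 with the GC trend removed with or without the block, and -0.092 to 0.085 with 1 library left out. The cause of these shifts was not tested. Depth limits STC1 in CYR61 cells, where it rests on 21 counts.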
